A study of Mus musculus with 40 samples.

Results

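The p24 proteins (Tmed genes) and the sulfhydryl oxidase Qsox1 were followed in liver and in gonadal fat (gonadal white adipose tissue, gWAT) of mice whose fathers had been exposed to nicotine. Tmed1, Tmed2, Tmed3, Tmed4, Tmed5, Tmed7, Tmed9, Tmed10 and Qsox1 were taken by gene symbol, 9 of the 20078 genes listed in any table of the study, and they were chosen by their normalized counts in these same samples, with the nicotine and control values already known. Their changes with paternal nicotine are therefore given as descriptions, with no p-value. All 9 genes were listed in all 4 tables (1 per tissue and sex) and had a mean normalized count of 10 or more in each, so that none was lost to the filter on low values.

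The p24 proteins are small type I membrane proteins that cycle between the endoplasmic reticulum (ER) and the Golgi in COPII and COPI coated vesicles. They carry a lumenal GOLD domain and bind cargo such as proteins with a glycosylphosphatidylinositol (GPI) anchor. They work as mixed oligomers drawn from 4 subfamilies: alpha (Tmed4 and Tmed9 among those measured), beta (Tmed2), gamma (Tmed1, Tmed3, Tmed5 and Tmed7) and delta (Tmed10). Qsox1 is a Golgi-resident and secreted enzyme that introduces disulfide bonds into proteins with molecular oxygen as the electron acceptor, and it acts on the extracellular matrix.

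The groups were, each in liver and in gWAT, daughters of nicotine-exposed fathers, sons of nicotine-exposed fathers, daughters of control fathers and sons of control fathers, all of strain C57BL/6J and with no genetic alteration named in the labels. The table headers call the control DMSO, which was read as the control of the labels; no label states the dose or route of nicotine or the age of the offspring. The labels assign 40 samples to 8 groups of 5; 39 library columns were analysed, since the male gWAT table held 4 control columns, and these carry no sample number. All samples carry the same batch number. RNA was read by 3′-tag sequencing, a method that reads polyadenylated transcripts next to their 3′ end, at 1543208 to 2239073 reads per library. The labels do not say which samples share a father or a litter, so errors and p-values reflect no more than sample-to-sample spread, part of which may be technical.

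Markers of the labelled tissue were present in every library: the summed hepatocyte markers lay between 57513 and 99503 normalized counts in liver, and the summed adipocyte markers between 28284 and 116754 in gWAT. Several libraries also held transcripts of other tissues. In male liver, nicotine library 2 held pancreatic acinar transcripts (a sum of 8662 normalized counts, with 5 of the 6 listed markers at a median of 0 over the table) and nicotine library 4 held skeletal muscle transcripts (5265). In male gWAT, the sum of 7 epididymis and ovary markers, 5 of them listed, was 18116 in nicotine library 1 and 25193 in the first control column. It lay between 80.1 and 3486 in the remaining 7 libraries, which were not free of these transcripts. Crisp1 had a median of 1999 over the table and was highest, at 3460, in the fourth control column. Nicotine library 1 of male gWAT also held hepatocyte transcripts, at a sum of 3509, against 219 to 738 in the other libraries. Counts and main values of male liver are given with and without nicotine libraries 2 and 4. Those of male gWAT are given with and without the 2 libraries of highest epididymis marker sum.

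The promoters of Tmed9 and Qsox1, the genes with the largest differences in female gWAT, and of Tmed5, which differed in the opposite direction, are shown as the 250 bases before the RefSeq gene start (build GRCm38.p6), 5′ to 3′ on the strand of the gene. Capitals mark matches to CCAAT or CCACG on either strand. These are the pentamers at either end of the ER stress response element. The windows lie at chr13:55592885-55593134 (plus strand) for Tmed9, chr1:155812900-155813149 (minus strand) for Qsox1 and chr5:108132621-108132870 (minus strand) for Tmed5. The genes themselves, all protein coding, span chr13:55573732-55597697, chr1:155776029-155812889 and chr5:108106366-108132620 in the GENCODE M21 annotation of GRCm38. For Tmed9 that span begins upstream of the RefSeq start, so its window lies inside the GENCODE gene.
Tmed9: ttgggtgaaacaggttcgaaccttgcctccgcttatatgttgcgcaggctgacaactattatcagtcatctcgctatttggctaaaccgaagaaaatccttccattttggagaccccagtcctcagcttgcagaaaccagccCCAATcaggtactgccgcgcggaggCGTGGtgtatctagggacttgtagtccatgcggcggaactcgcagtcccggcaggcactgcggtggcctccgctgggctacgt
Qsox1: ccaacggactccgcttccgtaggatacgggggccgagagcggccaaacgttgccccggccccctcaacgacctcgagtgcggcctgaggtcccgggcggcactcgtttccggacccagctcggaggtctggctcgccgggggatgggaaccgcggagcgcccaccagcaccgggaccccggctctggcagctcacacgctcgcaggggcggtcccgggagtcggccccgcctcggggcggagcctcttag
Tmed5: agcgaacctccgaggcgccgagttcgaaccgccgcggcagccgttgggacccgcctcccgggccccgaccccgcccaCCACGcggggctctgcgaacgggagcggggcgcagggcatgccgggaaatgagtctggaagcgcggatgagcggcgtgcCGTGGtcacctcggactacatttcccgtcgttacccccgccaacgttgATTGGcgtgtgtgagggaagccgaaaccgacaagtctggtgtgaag
The Tmed9 and Tmed5 windows held both pentamers and the Qsox1 window held neither. Qsox1 instead had a GC content of 73.6%, the highest of the printed windows, against 68.4% for Tmed5 and 55.6% for Tmed9.

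The RefSeq table held 8 windows for 7 of the genes searched, with 2 windows for Tmed1 and none for Tmed2; Tmed7 was not searched. CCAAT occurred in 6 of the 8 windows and in 33.8% of the 32851 mouse promoter windows of the same length, counting either strand here and for each motif below. CCACG occurred in 5 of the 8 and in 28.3% of all windows. The full element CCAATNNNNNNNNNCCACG was in none of the 8 and in 0.113% of all windows, and TGACGTGG, the unfolded protein response element, was in none of the 8 and in 0.563%. CACGTG was found for Tmed10 alone among the 8 (6.02% of all windows), where it overlaps a CCACG match. GGGCGG was in 4 of the 8 windows, including Qsox1 and Tmed5 but not Tmed9, against 32.7% of all windows, and TATAAA was in none of the 8, against 12.4%. These matches describe letters and not bound sites.

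Within the control groups, Qsox1 had more reads than any p24 gene in liver and had the highest mean in gWAT. The deposited values are normalized counts, and a 3′-tag count is not divided by transcript length because each transcript is read near its end. In control female liver the order of mean levels in normalized counts was Qsox1 (1223), Tmed5 (305), Tmed10 (211), Tmed9 (162), Tmed2 (152), Tmed4 (74.9), Tmed7 (61.5), Tmed3 (29.3) and Tmed1 (12.4). Of these neighbours, Tmed9 and Tmed2, and Tmed4 and Tmed7, had overlapping ranges; the other neighbours did not overlap. Control male liver had the same order except that Tmed9 (214) stood above Tmed10 (192), with overlapping ranges. In control gWAT Tmed9 was the leading p24 gene by a wide margin. It averaged 1268 normalized counts in control female gWAT, where the next gene, Tmed10, averaged 182 and did not overlap with it, and Qsox1 at 1783 was above Tmed9 in each of the 5 libraries. In control male gWAT Tmed9 (1811) and Qsox1 (1975) overlapped, and Tmed9 stood above Tmed10 (270) in all 4 libraries. Tmed9 thus made up 54.0% to 66.4% of all p24 normalized counts in control female gWAT and 47.1% to 72.2% in control male gWAT, against 14.1% to 18.2% in control female liver and 16.2% to 23.6% in control male liver. The tables were normalized separately, so levels set across tables are only approximate.

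**Figure D1:**
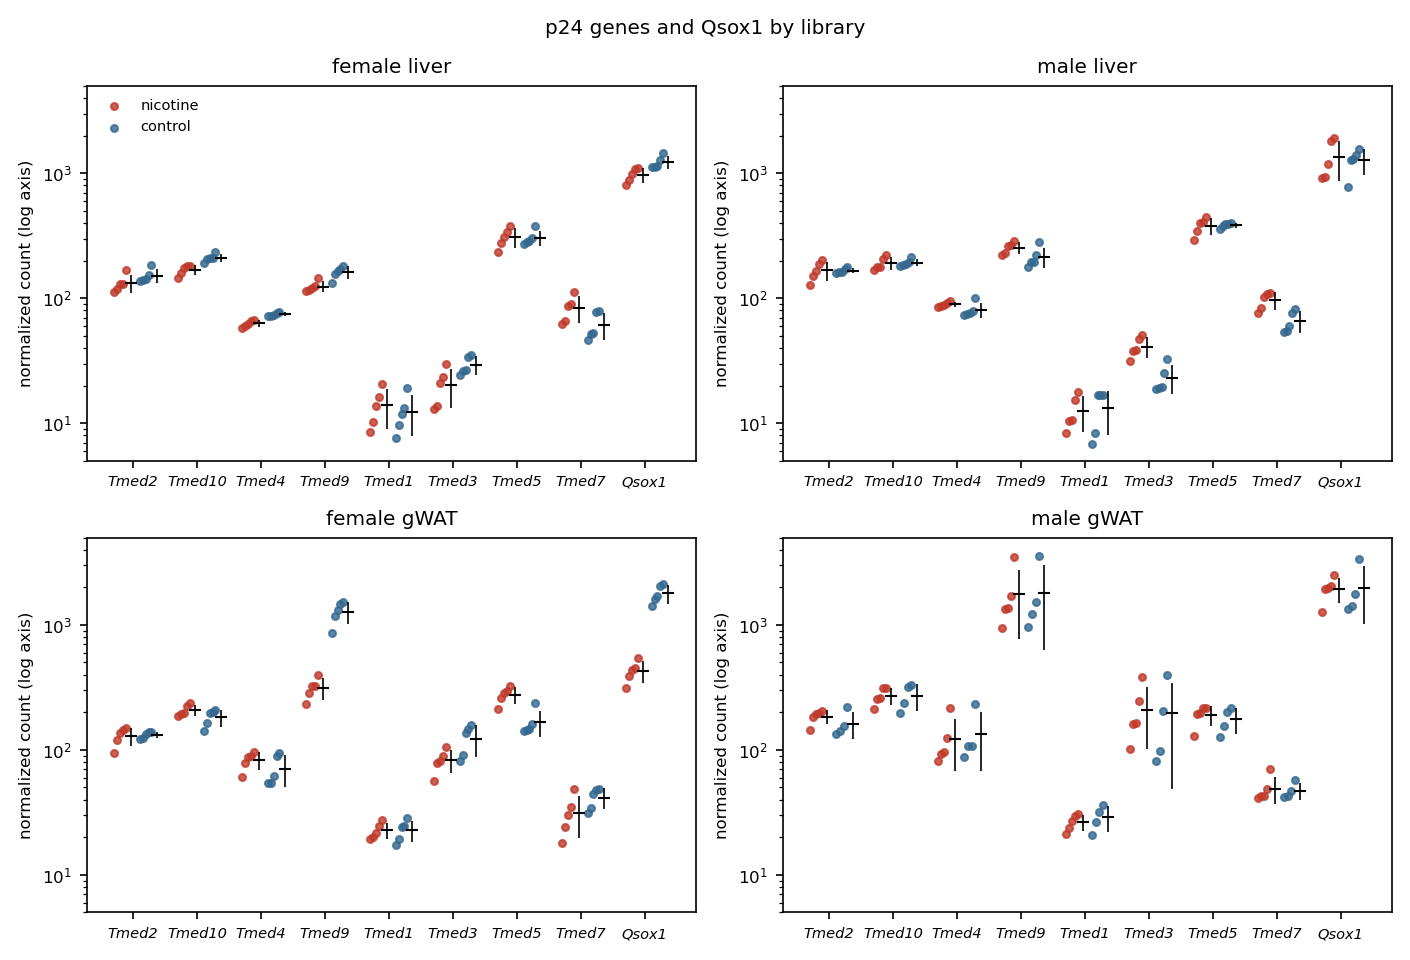
Normalized counts (log axis) of the 8 p24 genes and Qsox1 in the 4 tables, with nicotine libraries in red on the left and control libraries in blue on the right of each pair; points are libraries sorted by value and black bars are the mean ± SD. In female gWAT all nicotine libraries lie below all controls for Tmed9 (232 to 400 against 866 to 1510) and Qsox1 (314 to 546 against 1426 to 2138).

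The comparison with the most called genes was that of gWAT from daughters. Qsox1 and the alpha-subfamily member Tmed9 were at 0.239 and 0.247 of their control mean, and Tmed5, of the gamma subfamily, was 1.66-fold higher. These 3 of 9 genes passed the threshold (adjusted p below 0.05 in limma, fitted across all genes), 2 lower and 1 higher, where 25.2% of all 10532 tested genes passed, 12.8% as lower and 12.4% as higher. These values chose the genes, so the counts are given without a reading. In bulk tissue, fewer cells that express a gene and less RNA per cell cannot be told apart.

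Tmed9, which in mouse and human kidney cells is known as a cargo receptor that holds a misfolded mucin in vesicles, had 232, 287, 400, 322 and 324 normalized counts in nicotine libraries 1 to 5 of female gWAT, against 1310, 1469, 1183, 1510 and 866 in control libraries 1 to 5. The highest nicotine library was below the lowest control library. The means were 313 ± 61.4 with nicotine and 1268 ± 260 in controls (SD, n = 5 each), a log2 change of -2.01 (SE 0.19) on the log2(normalized count + 1) scale, and 159 of the 10532 tested genes had a change this low or lower.

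Qsox1 had 437, 314, 546, 388 and 449 normalized counts in nicotine libraries 1 to 5 of female gWAT, against 2062, 1691, 1426, 2138 and 1599 in control libraries 1 to 5. Again no nicotine library reached any control library. The means were 427 ± 85.3 with nicotine and 1783 ± 306 in controls (SD, n = 5 each), a log2 change of -2.07 (SE 0.18), and 141 of the 10532 tested genes were at or below this change. Of all 9 genes, 2 had every nicotine library below every control, and 0 had every one above; over all tested genes 8.19% were below in this way and 8.48% above, 16.7% in all.

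Tmed5, which in hamster cells takes part in binding GPI-anchored proteins, had 261, 296, 323, 282 and 214 normalized counts in nicotine libraries 1 to 5, against 235, 161, 142, 147 and 145 in control libraries 1 to 5. Nicotine library 5 fell below control library 1, and the other 4 nicotine libraries were above all controls. The means were 275 ± 40.9 with nicotine and 166 ± 39.4 in controls (SD, n = 5 each), a log2 change of 0.74 (SE 0.18). Tmed5 shares 2639 bases with Mtf2 on the opposite strand; Mtf2 averaged 52.0 normalized counts in this table, and without stated use of strand the reads of the overlap cannot be told apart.

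The remaining p24 genes did not pass the threshold in female gWAT. Tmed3 averaged 82.4 ± 17.6 normalized counts with nicotine and 123 ± 34.4 in controls, a log2 change of -0.55 (SE 0.22), with 2 nicotine libraries below all controls. Tmed7, which in cultured human cells helps deliver the lipopolysaccharide receptor TLR4 to the surface, averaged 31.0 ± 11.4 with nicotine and 41.3 ± 7.89 in controls, a log2 change of -0.45 (SE 0.26). The delta member Tmed10 and the beta member Tmed2, both required for mouse embryonic development, had log2 changes of 0.20 (SE 0.16) and -0.05 (SE 0.16). Tmed4, the other alpha member, had 0.24 (SE 0.21), and Tmed1 had 0.00 (SE 0.23). Tmed10 has a processed pseudogene copy, Tmed10-ps, that could share its reads; the copy had 1.21 to 14.5 normalized counts with nicotine and 7.86 to 20.2 in controls, while Tmed10 itself had 187 to 236 with nicotine and 141 to 207 in controls.

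The makeup of the p24 family therefore differed between the groups of female gWAT. Tmed9 took 22.3% to 31.4% of all p24 normalized counts with nicotine and 54.0% to 66.4% in controls. The other 7 p24 genes together summed to 784 to 874 normalized counts with nicotine and 650 to 771 in controls, without overlap, and this rested on Tmed5. With Tmed5 left out as well, the other 6 summed to 529 to 575 with nicotine and 507 to 618 in controls, which overlapped. With Tmed9 included the sum was 1038 to 1274 with nicotine and 1605 to 2275 in controls.

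**Figure D2:**
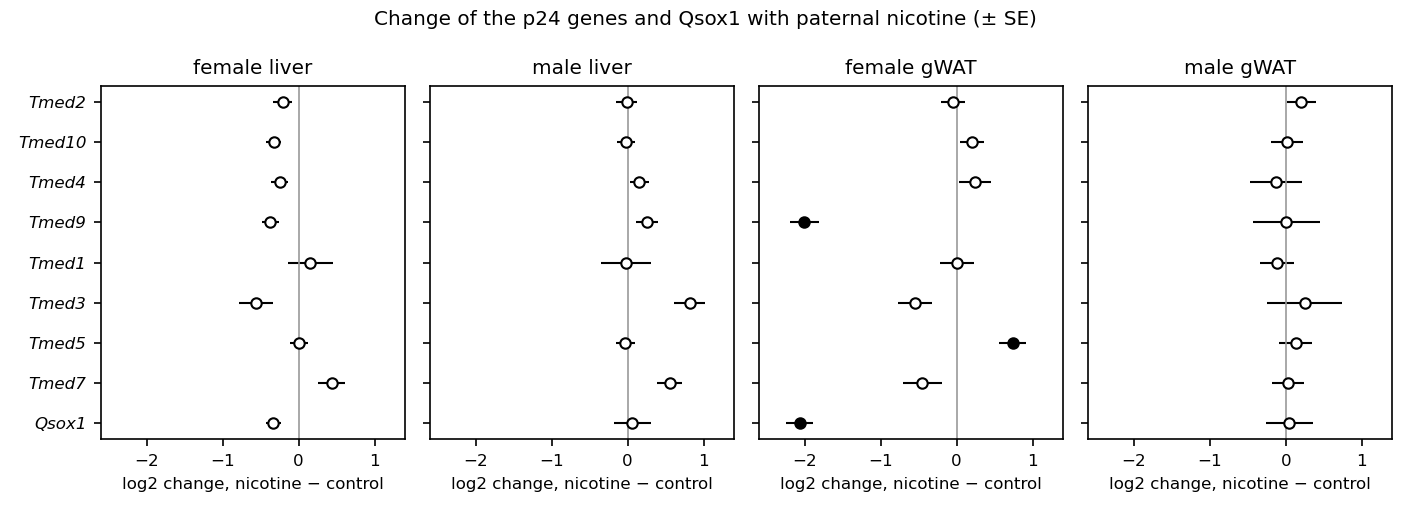
Log2 change (nicotine minus control, limma on log2(normalized count + 1)) of each gene in the 4 tables, with bars for the SE and filled points for genes past the adjusted threshold of 0.05. The filled points are Tmed9 (-2.01), Tmed5 (0.74) and Qsox1 (-2.07) in female gWAT, and no gene is filled in the other tables.

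Other measures moved with exposure in female gWAT. Reads in mitochondrial genes were 29.7% to 42.0% of each library with nicotine and 13.3% to 19.8% in controls. The summed level of the macrophage markers (7 of 8 listed) was 169 to 390 normalized counts with nicotine and 512 to 1114 in controls, and for both measures the groups did not overlap. The fibroblast markers (6 of 6 listed) summed to 2286 to 7819 with nicotine and 4464 to 10571 in controls, which overlapped, and the adipocyte markers (8 of 8 listed) to 36298 to 63277 with nicotine and 41059 to 116754 in controls. Skeletal muscle markers reached 19352 in control library 2, against 13.2 to 1200 with nicotine and 32.3 to 810 in the other controls. The part of these measures in the changes of Tmed9, Qsox1 and Tmed5 was not tested. Without control library 2 the count of called genes among the 9 was 3. That fit reuses the libraries that chose the genes, so the part of the muscle transcripts was not tested by it.

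A trend of each library on transcript length and GC content was removed in an alternative chosen after seeing the data. The changes were then -1.88 for Tmed9, -1.90 for Qsox1 and 0.64 for Tmed5, and the same 3 genes passed. Leaving out 1 library at a time gave -2.14 to -1.91 for Tmed9 and -2.16 to -1.96 for Qsox1, and all 3 genes passed in each of the 19 alternatives run. The alternatives refit the libraries that chose the genes, so they describe the fits and are not separate evidence.

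In gWAT of sons none of the 9 genes passed (0 of 9 in limma, edgeR and DESeq2), where 0% of the 11210 tested genes passed in limma and 182 genes, none of them among the 9, had an unadjusted p below 0.05. None of the 9 had groups that did not overlap, against 0.731% of all tested genes (0.339% with nicotine above and 0.393% below). Tmed9 had 3480, 1360, 1349, 952 and 1700 normalized counts in nicotine libraries 1 to 5, against 3543, 1536, 1211 and 955 in the 4 control columns. The 2 groups covered the same range, with a log2 change of 0.01 (SE 0.44). Qsox1 had 1922, 2034, 1968, 1262 and 2524 with nicotine, against 1754, 1346, 1411 and 3391 in the control columns, a log2 change of 0.05 (SE 0.31). Tmed5 averaged 190 ± 35.1 with nicotine (n = 5) and 175 ± 41.0 in controls (n = 4), a log2 change of 0.13 (SE 0.22), and the changes of the other 6 genes lay between -0.12 and 0.25.

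The spread of Tmed9, Tmed3 and Tmed4 in male gWAT came largely from 2 libraries, nicotine library 1 and the first control column. These had the highest epididymis marker sums. Tmed9 was at 3480 and 3543 there and at 952 to 1700 in the other 7 libraries. Tmed3 was at 380 and 400, against 81.0 to 245, and Tmed4 at 215 and 232, against 80.9 to 125. Tmed6, a gamma-subfamily p24 gene outside the 9, was at 39.8 and 65.2, against 1.74 to 26.1. Tmed5 was lower in the same 2 libraries, at 130 and 127 against 156 to 216, while Qsox1 (1922 and 1754 against 1262 to 3391), Tmed10 and Tmed1 were within the range of the others. Without these 2 libraries the log2 change was 0.12 for Tmed9, 0.02 for Qsox1 and 0.44 for Tmed3, and 0 of the 9 genes passed.

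**Figure D3:**
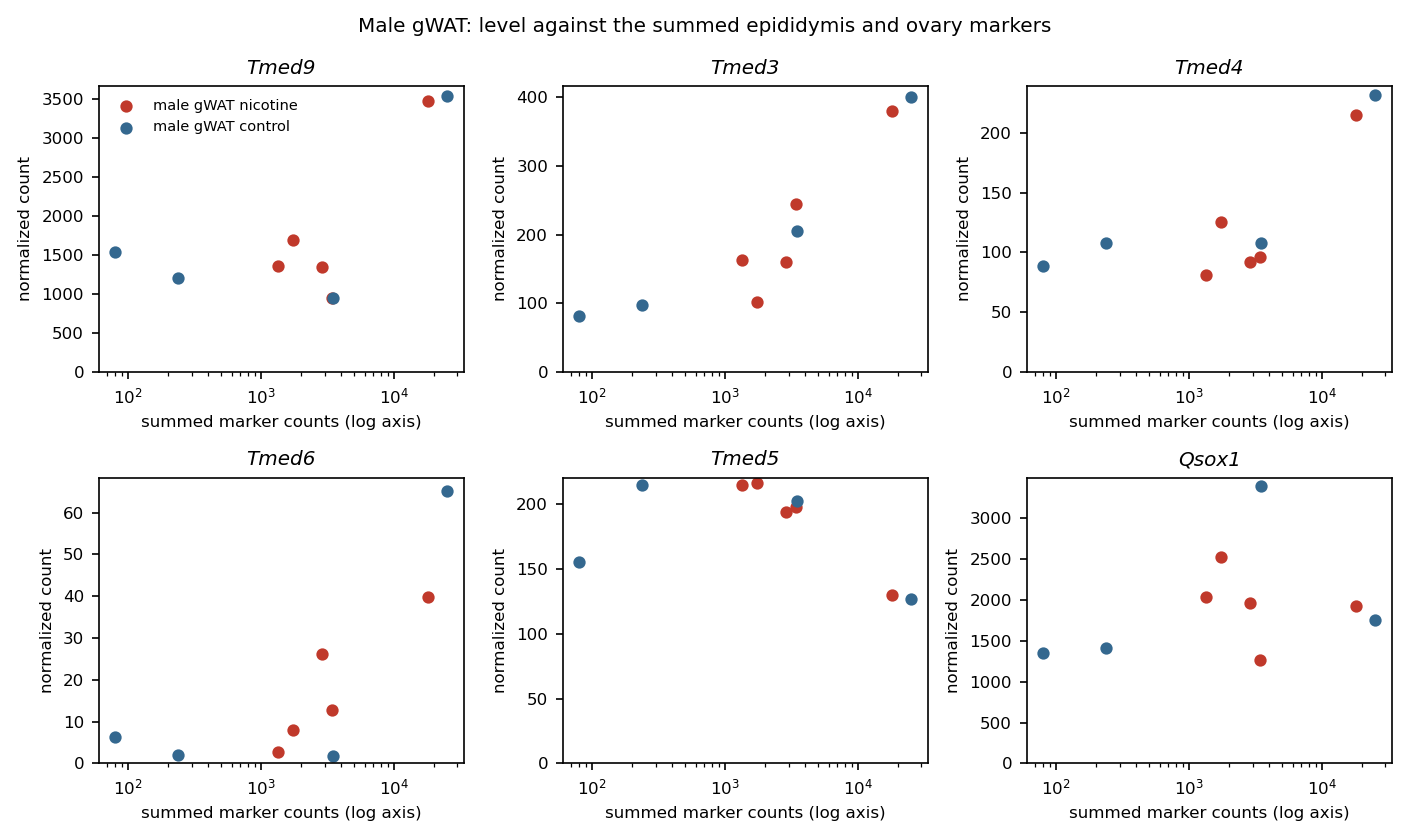
Normalized counts of 6 genes in the 9 male gWAT libraries (red nicotine, blue control) against the summed normalized count of the epididymis and ovary markers on a log axis. The 2 libraries at the right, with marker sums of 18116 and 25193, are highest for Tmed9, Tmed3, Tmed4 and Tmed6 and lowest for Tmed5.

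The difference between the sexes in gWAT was read from the interaction of sex and exposure, fitted over all 4 gWAT groups. For Qsox1 the change in daughters minus that in sons was -2.12 (SE 0.35) on the log2 scale, and for Tmed9 it was -2.02 (SE 0.47). These 2 of 9 genes passed, both lower in daughters, where 7.90% of the 10900 tested genes passed, 4.02% as higher and 3.88% as lower in daughters. The sex difference rests on the same libraries that chose the genes and is a description. They passed in all 27 alternatives, including without the 2 male libraries of highest epididymis marker sum. The values were then -2.09 for Qsox1 and -2.13 for Tmed9. For Tmed5 the difference was 0.61 (SE 0.28) and did not pass.

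In the liver of daughters, 5 of the 8 p24 genes had a negative log2 change with paternal nicotine, as did 50.7% of all tested genes. None of the 9 genes passed (0 of 9 in limma, edgeR and DESeq2), where 3.28% of the 9173 tested genes did in limma (1.61% higher and 1.67% lower). Of the 9, 6 had an unadjusted p below 0.05 in limma, as did 1610 of all tested genes. The genes were chosen with these values known, so the counts of this paragraph are given without a reading. Qsox1 had 1108, 1090, 879, 803 and 991 normalized counts in nicotine libraries 1 to 5, against 1279, 1145, 1121, 1118 and 1454 in control libraries 1 to 5. Its nicotine libraries were all below its controls, by a narrow gap, and the log2 change was -0.33 (SE 0.10). Tmed10 had 145, 182, 175, 158 and 180 with nicotine, against 207, 235, 211, 191 and 211 in controls, again without overlap, and a log2 change of -0.33 (SE 0.10). Tmed4 had 58.0, 62.8, 67.7, 60.0 and 66.1 with nicotine, against 72.8, 72.3, 76.7, 74.2 and 78.3 in controls, also without overlap, and a log2 change of -0.25 (SE 0.11). These 3 of 9 genes had every nicotine library below every control, against 2.49% of all tested genes, and 0 had every one above, against 2.25% (4.73% in either direction).

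Tmed9 in female liver had 145, 126, 121, 113 and 116 normalized counts in nicotine libraries 1 to 5, against 156, 173, 180, 166 and 132 in control libraries 1 to 5. Only nicotine library 1 and control library 5 crossed over, and the log2 change was -0.37 (SE 0.11). Tmed9 passed in 3 of 19 alternatives. These left out control library 5 (-0.44), left out nicotine library 1 (-0.43), or tested only genes with a mean of 50 or more. Tmed10 passed in 1 of 19, also with a mean of 50 or more. The 2 left-out libraries are those that crossed over, and the alternatives refit the libraries that chose the genes, so they are a description. Tmed3 averaged 20.3 ± 7.06 with nicotine and 29.3 ± 4.97 in controls (SD, n = 5 each; log2 change -0.56, SE 0.23), and Tmed2 averaged 132 ± 22.2 with nicotine and 152 ± 19.8 in controls (-0.21, SE 0.12). Tmed7 lay the other way, at 83.4 ± 20.5 with nicotine and 61.5 ± 15.3 in controls (0.44, SE 0.18), with 3 nicotine libraries above all controls. Tmed7 overlaps Ticam2 on the same strand over 14299 bases. Ticam2, at a mean of 3.02 normalized counts in female gWAT, was not among the genes listed for liver of either sex. Tmed5 was at 307 ± 55.1 with nicotine and 305 ± 42.6 in controls, and Tmed1 at 13.9 ± 4.81 with nicotine and 12.4 ± 4.42 in controls. Skeletal muscle markers (6 of 6 listed) summed to 280 in nicotine library 5 and 168 in control library 4 and to at most 16.7 elsewhere, and without these 2 libraries 0 of the 9 genes passed.

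In the liver of sons none of the 9 genes passed in limma or edgeR, where 0.0550% of the 9093 tested genes passed in limma (0.0220% higher and 0.0330% lower). DESeq2 on the recovered reads called 1, Tmed3, which did not pass 0.05 in the authors' deposited DESeq2 values. In limma 2 of the 9 and 1322 of all tested genes had an unadjusted p below 0.05. The genes were chosen with these values known, so the counts are given without a reading. Tmed3 had 47.1, 38.3, 31.4, 51.2 and 37.7 normalized counts in nicotine libraries 1 to 5, against 32.6, 19.0, 19.5, 25.4 and 19.0 in control libraries 1 to 5. Nicotine library 3 was below control library 1, and the other 4 were above all controls. The mean was 1.78-fold higher with nicotine, a log2 change of 0.82 (SE 0.20). Tmed7 had 103, 109, 110, 83.2 and 77.0 with nicotine, against 60.3, 82.3, 54.1, 76.3 and 54.9 in controls, with 4 nicotine libraries above all controls and a log2 change of 0.56 (SE 0.16). Of the 9 genes 0 had groups that did not overlap, against 3.16% of all tested genes (1.31% above and 1.85% below).

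Tmed9 averaged 254 ± 26.1 normalized counts with nicotine and 214 ± 40.4 in controls of male liver (SD, n = 5 each), a log2 change of 0.26 (SE 0.14), and Tmed4 averaged 89.5 ± 4.51 with nicotine and 80.9 ± 11.0 in controls (0.15, SE 0.13). Tmed10, Tmed2, Tmed5 and Tmed1 had log2 changes of -0.03 to -0.01. Qsox1 had 930, 1816, 1907, 1188 and 925 in nicotine libraries 1 to 5 and 1277, 1414, 772, 1309 and 1567 in control libraries 1 to 5, a log2 change of 0.06 (SE 0.24). Among the nicotine libraries, 1 and 5 were lowest for Qsox1 and had the highest summed macrophage markers (405 and 366, against 222 to 255 in the other nicotine libraries and 135 to 232 in controls). The same libraries had the lowest summed hepatocyte markers of male liver, at 57513 and 58131, against 73149 to 87002 in the other libraries. Fibroblast markers also summed to 620 to 1857 with nicotine and 577 to 747 in controls. The part of any of these marker lists in the gene values was not tested. Without nicotine libraries 1 and 5 the log2 change of Qsox1 was 0.38 and that of Tmed3 0.78. Without nicotine libraries 2 and 4, which held acinar and muscle transcripts, the values were 0.73 for Tmed3, 0.56 for Tmed7 and 0.17 for Tmed9. They were 0.14 for Tmed4 and -0.06 for Qsox1, whose sign turned. In both cases 0 of the 9 genes passed. Tmed6 was listed at 0 in every male liver library except nicotine library 2, at 10.4 normalized counts, the library with the acinar transcripts.

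Between the sexes in liver, Tmed3 differed most, since its change was -0.56 in daughters and 0.82 in sons. The interaction was -1.38 (SE 0.31), and this 1 of 9 genes passed, where 1.53% of 9149 tested genes passed, 0.831% as higher and 0.700% as lower in daughters. Tmed3 passed in 28 of 29 alternatives, including without male nicotine libraries 2 and 4 (-1.29). Without female nicotine library 4 it did not pass, at -1.24. This difference and its alternatives rest on the same libraries that chose the genes and are a description. Tmed9 had the next largest difference, -0.63 (SE 0.17), and did not pass, although it did in 4 of 30 alternatives. The summed p24 level was 829 to 959 normalized counts with nicotine and 934 to 1175 in controls of female liver. In male liver it was 1203 to 1264 with nicotine and 1098 to 1186 in controls. The male groups did not overlap, and 1.31% of single tested genes lay above in this way. Without nicotine libraries 2 and 4 the nicotine sums were 1203, 1228 and 1219. Of the 8 p24 genes, 4 had a negative log2 change in male liver. The sum covers genes chosen with these values known and is given without a reading.

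The wider secretory pathway was described from 7 lists, also chosen with earlier results known. In female liver 11 of 129 tested genes passed, 10 lower and 1 higher, in a table where 1.67% of tested genes passed as lower and 1.61% as higher. Of 34 ER chaperone and unfolded protein response genes, 4 fell and 1 rose, with a list median of -0.17 against -0.0045 for all tested genes. Hspa5, the ER chaperone BiP, fell to 1681 ± 125 normalized counts with nicotine, against 2809 ± 627 in controls (log2 change -0.72, adjusted p = 0.00131 by limma). Atf4, a transcription factor of the integrated stress response, fell to 133 ± 18.3 with nicotine, against 209 ± 12.1 in controls (-0.66, adjusted p = 0.00123 by limma), and Creld2 and Hyou1 fell by 1.13 and 0.66 on the log2 scale, Hyou1 being named after its values were seen. Herpud1, a component of ER-associated degradation, rose to 1932 ± 112 with nicotine, against 1153 ± 216 in controls (0.76, adjusted p = 0.000164 by limma).

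Of 17 COPII coat genes in female liver 2 fell, the cargo adaptor Sec24d (182 ± 9.50 normalized counts with nicotine and 273 ± 50.7 in controls, adjusted p = 0.0075 by limma) and the coat subunit Sec23b (65.2 ± 11.3 with nicotine and 97.3 ± 9.60 in controls, adjusted p = 0.0199 by limma). Of 15 other cargo receptors 1 fell, Surf4, which exports lipoproteins and other soluble cargo from hepatocytes, to 468 ± 24.5 with nicotine, against 604 ± 64.1 in controls (adjusted p = 0.0237 by limma). The disulfide isomerases Pdia6 and Tmx1 were 2 of 21 oxidoreductases and fell by 0.47 and 0.43 on the log2 scale, and Trappc4, a subunit of the TRAPP tether, was 1 of 25 tethers and SNAREs and fell by 0.96. Of 17 COPI coat genes 0 passed by limma, and 1 had an unadjusted p below 0.05. The medians of these lists lay between -0.15 and -0.01.

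In female gWAT 34 of 129 tested pathway genes passed, in a table where 25.2% of all tested genes did, and they moved both ways. Of the other cargo receptors (15 tested), 3 fell and 1 rose. Kdelr1, the receptor that returns chaperones with a KDEL tail to the ER, fell to 406 ± 87.6 normalized counts with nicotine, against 1090 ± 364 in controls (log2 change -1.38, adjusted p = 0.00131 by limma). Surf4 and Ergic3 fell by 0.63 and 1.29 on the log2 scale, and Ergic2 rose by 0.58. Of 17 COPII coat genes 4 rose and none fell: the cargo adaptors Sec24a (0.59) and Sec24b (0.61), the exit site protein Mia2 (0.55) and Preb (0.70), the exchange factor of the coat GTPase Sar1. The median of the same list was nevertheless -0.20, since 11 of its 17 genes had a negative log2 change. Of 17 COPI coat genes 1 rose and 1 fell; Arf4, a small GTPase that recruits the coat, fell by 0.48.

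Among 24 tethers and SNAREs of female gWAT 4 fell and 1 rose. Of all tested genes, 12.8% passed as lower and 12.4% as higher, which also stands beside the list counts that follow. The GTPase Rab1a fell to 297 ± 55.1 with nicotine, against 632 ± 130 in controls (-1.08, adjusted p = 0.00104 by limma), Yif1a and Trappc3 fell by 1.45 and 1.29 on the log2 scale, Ykt6, named after its values were seen, fell by 0.60, and the SNARE regulator Scfd1 rose by 0.77. Of 22 disulfide oxidoreductases, the list nearest to Qsox1 in function, 5 fell and 3 rose, with a median of -0.50 against -0.03 for all tested genes. Vkorc1, the vitamin K epoxide reductase, fell to 55.2 ± 17.4 with nicotine, against 135 ± 27.0 in controls (-1.32, adjusted p = 0.00213 by limma), and Pdia4 fell by 0.96, while Tmx2 rose to 132 ± 16.9 with nicotine, against 53.8 ± 8.68 in controls (1.29, adjusted p = 0.000236 by limma), and Tmx4 rose by 1.14. Of 33 chaperone and unfolded protein response genes 8 fell and 2 rose, with a median of -0.18. Among them the signal peptidase subunit Spcs1 fell by 1.07, the translocon genes Ssr2 and Sec61b fell by 1.21 and 0.88, and Selenos, a selenoprotein of ER-associated degradation, rose by 1.36. Tmed8, a GOLD-domain gene outside the 4 subfamilies, rose to 43.3 ± 7.35 with nicotine, against 24.1 ± 5.94 in controls (0.84, adjusted p = 0.0161 by limma). The mitochondrial share and the macrophage markers given above moved with the same groups, and their part in these counts was not tested.

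**Figure D4:**
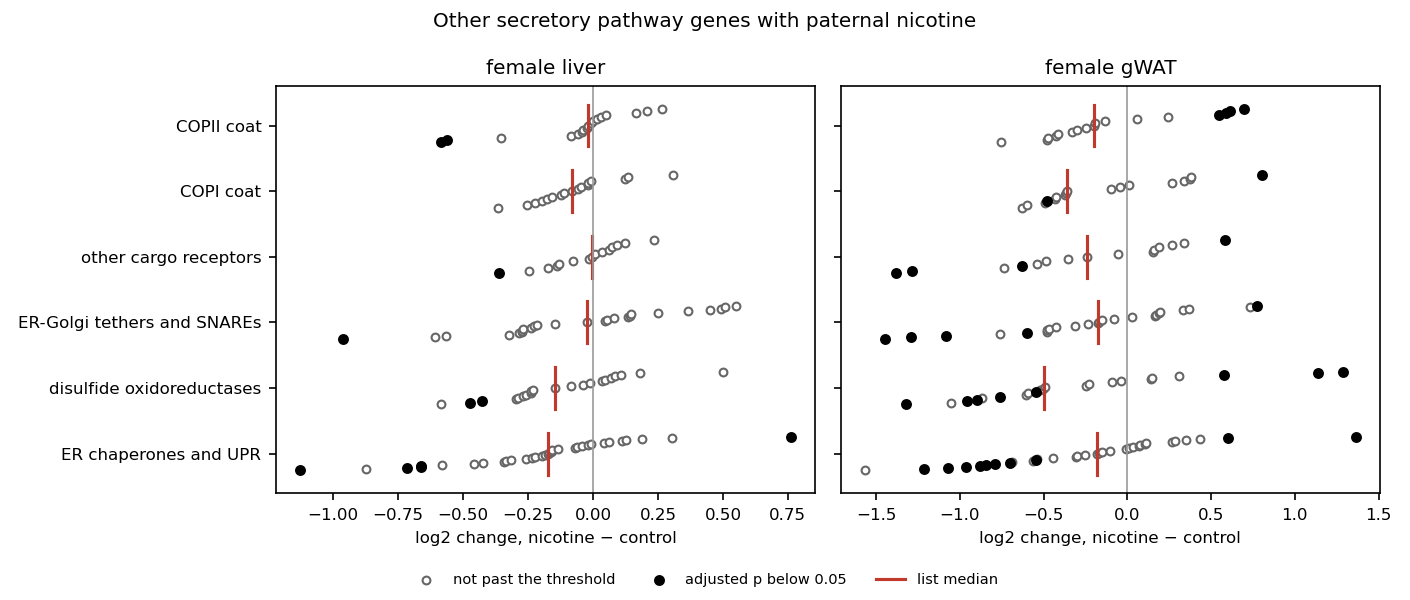
Log2 change (nicotine minus control) of each tested gene of 6 secretory pathway lists in female liver and female gWAT; filled points passed the adjusted threshold of 0.05 and red bars are list medians. The disulfide oxidoreductases of female gWAT have the lowest median, -0.50.

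In male liver 0 of 132 pathway genes passed by limma and by edgeR, 2 passed by DESeq2, and 20 had an unadjusted p below 0.05. Of the chaperone and unfolded protein response list 31 of 35 genes had a positive log2 change with nicotine, with a median of 0.22, where 4547 of all 9093 tested genes did. Without nicotine libraries 2 and 4, which held acinar and muscle transcripts, 20 of 35 did (48.9% of tested genes), with a median of 0.17, and 0 pathway genes passed. Hspa5 averaged 4079 ± 953 normalized counts with nicotine and 2771 ± 612 in controls (log2 change 0.55, adjusted p = 0.234 by limma), Surf4 649 ± 21.8 with nicotine and 630 ± 31.4 in controls, and Pdia6 1439 ± 397 with nicotine and 1369 ± 127 in controls. Mia2 had 962 ± 167 with nicotine and 1300 ± 121 in controls (adjusted p = 0.196 by limma). Without the same 2 libraries the nicotine means (n = 3) were 3401 ± 269 for Hspa5, 660 ± 23.8 for Surf4, 1217 ± 323 for Pdia6, then below its control mean, and 896 ± 152 for Mia2. In male gWAT 0 of 137 pathway genes passed by limma, edgeR or DESeq2, and 0 had an unadjusted p below 0.05. Kdelr1 averaged 875 ± 237 with nicotine and 917 ± 113 in controls, Rab1a 669 ± 103 with nicotine and 582 ± 166 in controls, and the list medians lay between -0.02 and 0.16, leaving out the list of other Tmed genes with only 2 tested. Without the 2 libraries of highest epididymis marker sum 0 pathway genes passed. Kdelr1 then averaged 868 ± 273 with nicotine (n = 4) and 942 ± 123 in controls (n = 3). Rab1a then averaged 642 ± 95.3 with nicotine and 507 ± 86.8 in controls.

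Within groups some pairs of p24 genes varied together and others in opposite directions. The r was positive for 17 of 28 pairs in gWAT and 12 of 28 in liver. Over the deviations of each library from its group mean, the 28 pairs of p24 genes had a median Pearson r of 0.06 (from -0.61 to 0.68) over 19 gWAT libraries and of -0.01 (from -0.54 to 0.59) over 20 liver libraries. The libraries share depth and composition, so these values are descriptions. The highest pair in gWAT was Tmed4 with Tmed9 (0.68), both high in the 2 male libraries of highest epididymis marker sum. The lowest was Tmed3 with Tmed5 (-0.61). In liver the highest pair was Tmed3 with Tmed10 (0.59). Genes whose deviations were most like the p24 mean were Mrps22 (0.71), Ccdc167, Brf1, Gmps and Egln3 in liver and Lap3 (0.92), Sec11c, Hoxd8, Fam3c and H2bc21 in gWAT. In gWAT the p24 mean was 0.43 and 0.39 above its group on the log2 scale in the first male control column and male nicotine library 1, and between -0.32 and 0.10 in the other 17 libraries. Genes most like Qsox1 included Rab14 (0.90), Hsd3b7, Gpld1 and Bhmt2 in liver and Nck1 (0.78), Gabarap, Sde2, Crem and Mrpl15 in gWAT.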

How the data were processed

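The deposited tables, 1 per tissue and sex, hold a signal that is each gene's count divided by a library size factor (normalized counts), with log2 fold changes and p-values from DESeq2 by the authors, per the file headers. Cutadapt, STAR, DESeq2 and build mm10 are named in the submitters' processing notes without versions or settings; whether strand was used in counting is not given there. Dividing the values by the step of 1 read gave whole numbers for 100% of them in each library, to within 0.1 read.

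Genes with a mean of 10 or more per table were tested on log2(normalized count + 1) with limma 3.58.1 (R 4.3.3), nicotine minus control, with trended empirical Bayes moderation and Benjamini-Hochberg adjustment over all tested genes at 0.05. Sex differences were interactions over the 4 groups of a tissue. edgeR 4.0.16 and DESeq2 1.42.0 on the recovered reads, other pseudocounts, filters, scaling, a replicate block and left-out libraries were alternatives. The limma fits were also run on simulated counts drawn separately for each gene. These draws do not carry shifts of tissue makeup shared across genes, and their outcome is not reported here. Depth was 1543208 to 2239073 reads per library, and intervals for counting error were not computed. Male gWAT had 4 control columns in place of 5.

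The members and gene lists were chosen with earlier results of these data known. Of each pathway list and table, up to 4 genes past the threshold with the smallest p were named, or, where none passed, the 2 with the highest mean; the 5 genes most like the p24 mean and Qsox1 were named per tissue, leaving out predicted genes. Some genes that this rule picks are not reported here. Same-numbered libraries of nicotine and control groups had correlations of deviations of -0.28 to 0.17, so the numbers were not taken as pairs.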

Additional observations from a re-analysis of the deposited data

Results flagged for a closer look

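In 6 of the 72 groups of 4 or 5 libraries checked (8.33%), 1 library lay apart from the rest of its group by Dixon's test at the 95% level, which chance gives in about 5% of groups. In female liver, Tmed5 was at 378 normalized counts in control library 2, against 274 to 304 in the other 4 controls. In male liver, Tmed4 was at 100 in control library 2, against 74.2 to 79.5 in the others. In female gWAT, Tmed5 was at 235 in control library 1, against 142 to 161, and without that library its log2 change was 0.87. In male gWAT, nicotine library 1 stood apart for Tmed5 (130, against 194 to 216) and Tmed7 (69.9, against 40.8 to 48.4), and the first control column for Tmed4 (232, against 88.3 to 108). Both are the libraries of highest epididymis marker sum, and nicotine library 1 also had the highest hepatocyte marker sum of male gWAT (3509).

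The interaction of sex and exposure in limma passed the threshold for Tmed3 in liver (-1.38, daughters minus sons on the log2 scale). It also passed for Qsox1 (-2.12) and Tmed9 (-2.02) in gWAT. Of all tested genes, 1.53% passed in liver and 7.90% in gWAT. Tmed3 did not pass without female liver nicotine library 4. These differences come from the samples that chose the genes.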

How the results depend on the processing

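No log2 change of a p24 gene or Qsox1 that passed the threshold changed its sign in any alternative. In female liver, the number of the 9 genes that passed was 2 with a mean of 50 or more (Tmed9 and Tmed10) and 1 with the replicate block (Qsox1), against 0. Without control library 4 and nicotine library 5, 181 genes passed in female liver, against 301. In male liver, where 5 genes passed, the counts were 0 with a mean of 50 or more, 3 by edgeR, 186 by DESeq2, 0 with the replicate block and 54 without nicotine libraries 2 and 4, which was chosen after seeing the data; DESeq2 also called 1 of the 9 genes and 2 pathway genes. The liver sex difference had 247 genes and 2 of the 9 by DESeq2, and 90 genes without male nicotine libraries 1 and 5, female control library 4 and female nicotine library 5, against 140; without male nicotine libraries 2 and 4, also chosen after seeing the data, it had 492. The gWAT sex difference had 1342 genes by DESeq2, against 861.

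Leaving out 1 library at a time gave 185 to 329 genes, 0 to 1 of the 9 and 6 to 11 pathway genes in female liver, 0 to 16 genes in male liver, 1954 to 2768 genes, 3 to 4 of the 9 and 28 to 37 pathway genes in female gWAT, and 0 genes in male gWAT. For the sex differences it gave 67 to 289 genes and 0 to 2 of the 9 in liver, and 414 to 1116 genes and 2 of the 9 in gWAT. Counts moved by more than 1.5 times in female liver without control 5 (185 genes) or nicotine 4 (195), and for its pathway genes without control 1, control 2 or nicotine 4 (6 each); 1 of the 9 passed without control 5 or nicotine 1. In male liver they were 0 without control 1, 2, 3 or 5 or nicotine 1 or 4, 1 without nicotine 5, 2 without nicotine 3, 3 without control 4 and 16 without nicotine 2. The liver sex difference had 67 genes without female nicotine 4, and 75 to 91 without female control 1, 2 or 5, female nicotine 1, male control 1, 3 or 4, or male nicotine 1 or 5. It had 270 without male nicotine 2 and 289 without male nicotine 3; of the 9 genes 0 passed without female nicotine 4, and 2 without male control 2 or male nicotine 3. The gWAT sex difference had 414 to 563 genes without female control 4, female nicotine 2 or 4, or male control column 3 or 4. The cause of these shifts was not tested. With the replicate block, 341 genes passed in female liver, 2011 genes with the same 3 of the 9 and 26 pathway genes in female gWAT, and 97 genes in the liver sex difference; no paired analysis was possible for male gWAT and the gWAT sex difference because the control columns carry no numbers. Each library was closest to its own number in 2 of 15 pairs. With no filter on low values the median of all genes in female gWAT moved to -0.11. At this depth genes of few reads, such as Tmed1 (12.4 normalized counts in control female liver), allow only large differences to be seen.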

Other observations

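Qsox2, the paralog of Qsox1, had 116, 27.3, 44.5, 22.7 and 13.3 normalized counts in nicotine libraries 1 to 5 of male gWAT, against 86.1, 19.1, 9.00 and 23.4 in the control columns. It was highest in the 2 libraries of highest epididymis marker sum.

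In the authors' deposited table for female gWAT, the log2 fold change was -2.01 (SE 0.18) for Qsox1, -1.96 (SE 0.19) for Tmed9 and 0.71 (SE 0.19) for Tmed5. In the authors' deposited table for male liver it was 0.71 (SE 0.22) for Tmed3.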
